A study of Mus musculus with 26 samples.

Results

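The genes described here encode the subunits of the mitochondrial respiratory chain (complexes I to IV) and of ATP synthase (complex V). They were taken from the deposited gene table by symbol. Symbols that begin with Ndufa, Ndufb, Ndufc, Ndufs, Ndufv, Uqcr, Cox4, Cox5, Cox6, Cox7, Cox8, Atp5, mt-Nd, mt-Co, mt-Cyt or mt-Atp, and Sdha to Sdhd, were kept, and pseudogene symbols with -ps were dropped. This gave 110 of 55391 genes. Of these, 89 are nuclear subunit genes, 13 are encoded on mitochondrial DNA, and 8 are Ndufaf genes, which the symbol rule also takes in but which encode assembly factors of complex I and were counted apart. The nuclear genes comprise 41 of complex I, 4 of complex II, 8 of complex III, 19 of complex IV and 17 of complex V. They were grouped by symbol alone, which need not match the complex that holds the protein. The mitochondrial genes comprise 7 of complex I, 1 of complex III, 3 of complex IV and 2 of complex V.

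The respiratory chain passes electrons from NADH and succinate to oxygen and pumps protons across the inner mitochondrial membrane, and ATP synthase uses the returning protons to make ATP. Complexes I, III, IV and V are built from subunits of both genomes, whereas complex II, which is also the succinate dehydrogenase of the tricarboxylic acid cycle, is wholly nuclear. Nuclear subunit mRNAs are transcribed in the nucleus one gene at a time, while the mitochondrial genes are transcribed by a dedicated polymerase as long transcripts that are then cut into single mRNAs.

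RNA was measured by sequencing in EA1, EA2 and EA3, murine lung cancer cell lines driven by an Eml4-Alk fusion. All the lines were derived from C57BL/6 mice. Each line was cultured with 100 nM alectinib, an inhibitor of the ALK kinase, or with its solvent, 0.1% DMSO, for 1, 2, 3 or 5 days, giving 24 libraries, a single one for each combination of line, treatment and day. A pair of EA3 libraries of day 7 is given as values and entered only 1 alternative fit, with all 26 libraries. Each line is a single culture, so a difference between lines is a difference between 3 cultures and cannot be assigned to any feature in which they differ. The days served as replicates of a line and treatment, and the p-values below therefore measure only the spread between days, which may be partly technical. Total counts ran from 5780062 to 11732401 per library (median 9252878). The epithelial genes Krt8, Krt18, Krt19 and Cdh1 were counted in every library, at levels that differed between lines and with treatment as given below, whereas Epcam was between 0 and 211 CPM (counts scaled to the size of the library, with TMM factors). Of the alveolar genes, Sftpa1 was at 0 in all 24 libraries, Sftpc and Nkx2-1 were at 0 in 22, and Sftpb was at 0 in 7 and at most at 0.593 CPM. Etv4, Etv5, Dusp6 and Spry4, targets of signaling downstream of ALK, were all lower with alectinib in each line, the smallest change being that of Dusp6 in EA1 (log2 fold change -2.34 ± 0.30, SE). In these bulk libraries, fewer cells of a kind and less RNA per cell cannot be told apart.

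Before the values of the mitochondrial genes can be read, 1 feature of the genome has to be described. A stretch of mitochondrial DNA, from base 6381 to base 11042 of chromosome M, has a near-identical copy in nuclear DNA at chr1:24611535-24616197 on the minus strand (mm10), annotated as 7 pseudogenes. STAR counts only reads that map to a single place, so reads from this stretch can be lost or be shared with the copy. The following 150 bases are shown because they are the same in mt-Co2, which encodes a core subunit of complex IV (exon, chrM:7038-7187, plus strand), and in its copy Gm28661 (chr1:24615391-24615540, minus strand).
mt-Co2: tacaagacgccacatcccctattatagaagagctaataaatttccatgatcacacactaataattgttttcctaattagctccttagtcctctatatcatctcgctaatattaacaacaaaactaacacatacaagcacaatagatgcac
Gm28661: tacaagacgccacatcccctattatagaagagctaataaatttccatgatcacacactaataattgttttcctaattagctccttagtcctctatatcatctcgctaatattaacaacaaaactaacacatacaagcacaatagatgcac
Over the whole of Gm28661, 681 of 681 bases matched mt-Co2. Gm10925 and mt-Atp6 (678 bases), Gm28437 and mt-Co3 (783 bases), Gm10222 and mt-Nd4l (294 bases), and Gm28439 and the matching part of mt-Nd4 (876 bases) differed at 0 positions, and Gm29216 and part of mt-Co1 (483 bases) and Gm28438 and mt-Nd3 (345 bases) at 1 position each.

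The 13 mitochondrial genes were therefore read in 3 classes. mt-Nd1, mt-Nd2, mt-Nd5, mt-Nd6 and mt-Cytb lie outside the copied stretch, mt-Co1 (31.8% of its bases) and mt-Nd4 (63.6%) lie partly in it, and mt-Co2, mt-Atp8, mt-Atp6, mt-Co3, mt-Nd3 and mt-Nd4l lie wholly inside it. The genes inside it were low and fell into separate levels by library. In 8 libraries mt-Co2 was between 230 and 320 CPM (median 285), and in the other 16 it was between 6.63 and 19.0 CPM (median 13). Its copy Gm28661 moved in the same libraries, from a median of 18.2 CPM in the 16 to 216 CPM in the 8. Ratios of the medians for the other genes inside ran from 18.8 for mt-Atp6 to 67.2 for mt-Atp8, whereas they were 1.06 for mt-Co1 and between 1.22 and 1.81 for the genes outside.

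The 8 libraries were EA1 with alectinib on days 1, 3 and 5, EA2 in DMSO on days 1 and 5, EA2 with alectinib on day 2, and EA3 with alectinib on days 1 and 3. Across the 3 lines they do not follow line, treatment or day, but 6 of them are alectinib libraries. In EA1 and EA3 all of them are alectinib libraries, so that within these lines they go with treatment. The labels give no batch that sets them apart. When a term for these libraries was added to the alectinib fit after the data were seen, 581 of 14264 genes (4.07%) followed it, 576 of them higher, and 0 of 79 nuclear subunit genes did. Levels of the 6 genes inside the stretch are not read as transcript levels below, and the number of calls that remained with the term is given for each comparison in which subunit genes passed.

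**Figure D1:**
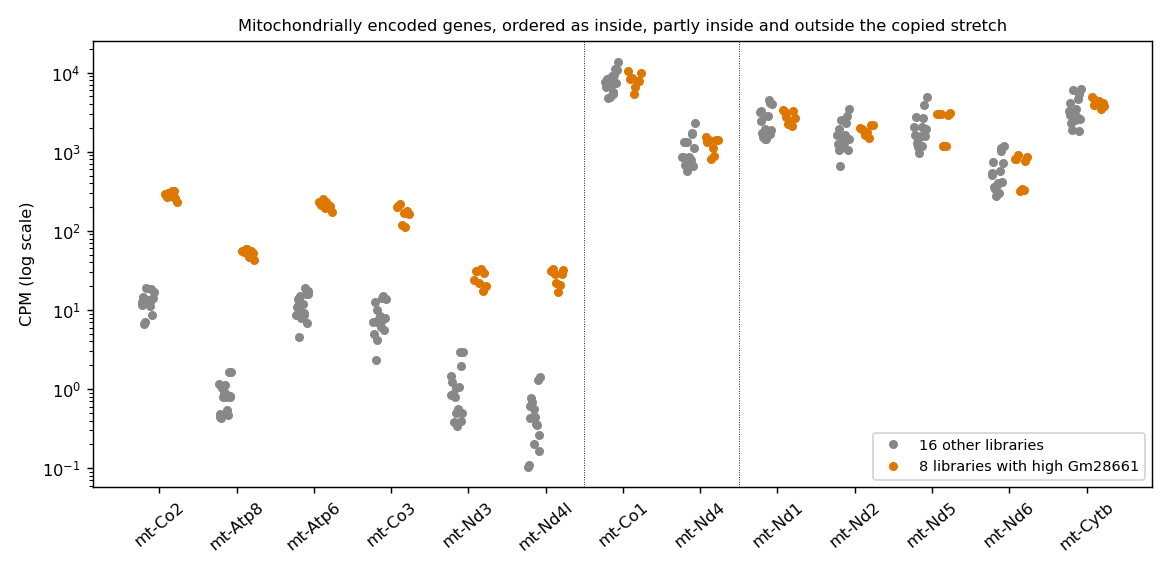
TMM-scaled CPM (log axis) of the 13 mitochondrial genes in each of 24 libraries, with the 8 libraries that stand apart in orange and the 16 others in grey. The 6 genes inside the copied stretch split into separate levels (mt-Co2 at 230 to 320 against 6.63 to 19.0 CPM), while for the genes outside it the levels overlap.

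Per kilobase of exon, mt-Co1 was the highest of the genes at a mean of 5178 CPM over the 24 libraries, and the 5 genes outside the copied stretch ran from 1153 for mt-Nd6 to 3237 for mt-Cytb. mt-Nd6, the only 1 of the 13 genes read from the other strand of mitochondrial DNA, was close to mt-Nd5 (1162) per kilobase. The gene mt-Nd5 overlaps mt-Nd6 over 0.8% of its exon bases, and since the sources used here do not give the strand setting of the counts, reads of that overlap cannot be assigned. The 13 genes together took between 1.12% and 3.70% of all counts in a library.

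With alectinib, the mitochondrial genes outside the copied stretch were higher in EA1 and EA3, whereas the nuclear subunit genes as a group hardly moved. In EA1, 4 of the 5 mitochondrial genes rose (19.0% of all 14264 genes tested rose), and in EA3 3 of 5 rose (17.5% of all genes). In EA2, 0 of 5 passed this test of edgeR (13% of all genes rose), 0 had an unadjusted p under 0.05 (5140 of 14264 genes did), and DESeq2 also called 0. For the 5 genes the median log2 fold change was 0.82 (EA1), 0.24 (EA2) and 0.75 (EA3), beside medians over all genes of 0.06, 0.00 and 0.07.

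The gene mt-Nd5, which encodes a proton-pumping subunit of complex I, had the smallest p of the 5 in EA1 and EA3. In EA1 it was at 2065, 1642, 1289 and 1149 CPM in DMSO on days 1, 2, 3 and 5, and at 3002, 2723, 2973 and 2991 CPM with alectinib. In EA3 it was at 2038, 2651, 1584 and 1921 CPM in DMSO and at 2913, 3879, 3130 and 4968 CPM with alectinib. In both lines every treated library was above every control library. In EA2 it was at 1167, 977, 1167 and 1193 CPM in DMSO and at 1466, 1183, 1602 and 1178 CPM with alectinib, and these ranges overlap. The log2 fold change was 0.96 ± 0.18 (SE, adjusted p = 0.00136) for EA1, 0.85 ± 0.18 (adjusted p = 0.00295) for EA3 and 0.26 ± 0.18 (adjusted p = 0.315) for EA2, by the quasi-likelihood test of edgeR, with p adjusted over all genes after Benjamini and Hochberg, which is the test behind every adjusted p here.

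The gene mt-Cytb, the mitochondrial subunit of complex III, was at 3275, 2946, 2330 and 1893 CPM in DMSO and at 4865, 4141, 3951 and 4523 CPM with alectinib in EA1, so that the groups did not overlap. In EA3 it was at 2755, 4673, 1833 and 2568 CPM in DMSO and at 4167, 5431, 3771 and 6203 CPM with alectinib, higher on each day though the ranges overlap. Its log2 fold change was 0.77 ± 0.20 in EA1 (adjusted p = 0.00924) and 0.78 ± 0.20 in EA3 (adjusted p = 0.00889), beside 0.24 ± 0.20 in EA2 (adjusted p = 0.40).

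Of the other complex I genes, mt-Nd6 rose in EA1 (log2 fold change 0.94 ± 0.20, adjusted p = 0.00286) and was at 0.52 ± 0.20 in EA3 (adjusted p = 0.0557). mt-Nd2 rose by 0.82 ± 0.21 in EA1 (adjusted p = 0.00932) and by 0.75 ± 0.21 in EA3 (adjusted p = 0.0152). mt-Nd1 was at 0.55 ± 0.20 in EA1 (adjusted p = 0.0513) and at 0.44 ± 0.20 in EA3 (adjusted p = 0.114). The core complex I gene mt-Nd4, which lies partly in the copied stretch, rose by 0.83 in EA1 and 0.73 in EA3, and mt-Co1, the catalytic subunit of complex IV, was at 0.44, 0.21 and 0.37 in EA1, EA2 and EA3 and passed in none of them.

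With the term for the 8 libraries, mt-Nd5 (0.92, adjusted p = 0.0129) and mt-Nd6 (0.73, adjusted p = 0.0357) remained past the threshold in EA1, whereas mt-Nd2 (0.75, adjusted p = 0.0589) and mt-Cytb (0.68, adjusted p = 0.0669) did not. In EA3, mt-Nd5 (0.83, adjusted p = 0.00978), mt-Cytb (0.72, adjusted p = 0.0282) and mt-Nd2 (0.70, adjusted p = 0.0408) remained. Without day 3, 2 of 5 genes passed in EA1 and 1 of 5 in EA3. mt-Nd5 and mt-Nd6 in EA1, and mt-Nd5 in EA3, passed whichever day was left out. For the 2 genes partly inside, the mt-Nd4 calls in EA1 (0.565 with the term) and EA3 (0.552) were lost with it. On the line and day pairs in which neither library stands apart, the log2 ratio of the summed CPM of the 5 genes was 0.53 (EA1, day 2), 0.10 (EA2, day 3), 0.17 (EA3, day 2) and 1.21 (EA3, day 5).

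The rise in EA1 and EA3 was not shown to differ from that in EA2. In the test of a difference of the effect between the 3 lines, 0 of the 5 genes and 0 of 79 nuclear subunit genes passed (6.84% of all genes did). At an unadjusted p under 0.05 there were 2 and 3, beside 3585 of all 14264 genes. DESeq2 was not run for this test. Among the 5 genes the largest gap was that of mt-Nd6, whose log2 fold change was lower by 0.84 in EA2 than in EA1 (95% interval of EA2 minus EA1 -1.43 to -0.25, adjusted p = 0.086).

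The sum over the nuclear subunit genes showed no such rise. In EA1 its log2 ratio of alectinib to DMSO was -0.16, -0.05, 0.11 and -0.05 on days 1, 2, 3 and 5 (mean -0.04 ± 0.11, SD, n = 4), whereas that of the 5 mitochondrial genes was 0.40, 0.53, 0.93 and 1.22 (mean 0.77 ± 0.38). In EA3 the nuclear ratio was -0.20, -0.51, 0.19 and -0.01 (mean -0.13 ± 0.30) and the mitochondrial ratio 0.43, 0.17, 0.94 and 1.21 (mean 0.69 ± 0.47). In EA2 the nuclear ratio was -0.13, -0.20, -0.26 and 0.08 (mean -0.13 ± 0.15) and the mitochondrial ratio 0.50, 0.41, 0.10 and -0.11 (mean 0.22 ± 0.28). The mitochondrial ratio exceeded the nuclear ratio on days 1, 2, 3 and 5 in EA1 and EA3 and on days 1, 2 and 3 in EA2. Between days 1 and 5 the mitochondrial sum in EA1 went from 10659.4 to 5576.9 CPM in DMSO and from 14064.0 to 13007.5 CPM with alectinib. The growing ratio in EA1 thus went with a falling level in DMSO. In EA3 the sum went from 9825.7 to 8533.8 CPM in DMSO and from 13249.0 to 19801.3 CPM with alectinib. In EA2 it went from 9339.4 to 8623.1 CPM and from 13168.3 to 7971.8 CPM. These sums are descriptions and were not tested.

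**Figure D2:**
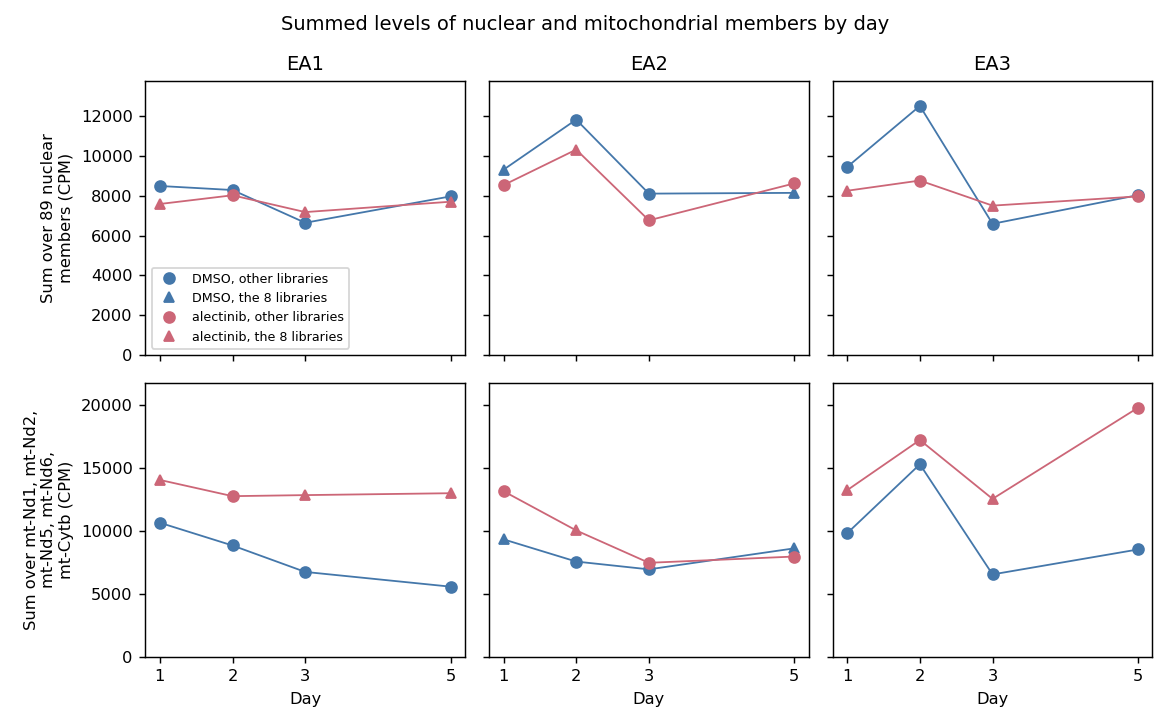
Summed TMM-scaled CPM of the nuclear subunit genes and of mt-Nd1, mt-Nd2, mt-Nd5, mt-Nd6 and mt-Cytb by day, for DMSO and alectinib in each line, with triangles for the 8 libraries that stand apart. The mitochondrial sum with alectinib lies above DMSO on all 4 days in EA1 and EA3 (log2 ratios 0.17 to 1.22), and the nuclear sums lie within 0.51 on the log2 scale of each other.

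Few nuclear subunit genes changed with alectinib, and the share was below that of all genes in each line. Of 79 nuclear genes that passed the filter on low counts, 3 rose and 4 fell in EA1 (14.6% of all genes fell), 0 rose and 3 fell in EA2 (11.3% of all genes fell), and 0 rose and 4 fell in EA3 (15.1% of all genes fell). DESeq2 called 1 gene higher in EA2, and 0 higher and 8 lower in EA3. At an unadjusted p under 0.05, 15, 7 and 8 of the 79 nuclear genes differed in either direction in EA1, EA2 and EA3. Of all 14264 genes, 6402, 5140 and 6116 did, so that these shares were also smaller for the nuclear genes. The 79 genes had a median log2 fold change of 0.07 (EA1), -0.08 (EA2) and -0.06 (EA3). When libraries were scaled by size alone, 5 rose and 0 fell in EA1. By complex, 0 of 12 genes of complex IV passed in any of the 3 lines.

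In complex II, Sdhb, the iron-sulfur subunit that hands electrons from the catalytic subunit to ubiquinone, fell in EA1 and EA2. It was at 159, 220, 143 and 131 CPM in EA2 in DMSO on days 1, 2, 3 and 5 and at 116, 147, 87.6 and 108 CPM with alectinib. In EA1 it was at 93.0, 90.1, 90.4 and 80.8 CPM in DMSO and at 78.8, 67.5, 65.3 and 64.3 CPM with alectinib. The treated library was the lower on each day in both lines, and in EA1 the groups did not overlap. The log2 fold change was -0.51 ± 0.12 in EA2 (adjusted p = 0.00675) and -0.36 ± 0.12 in EA1 (adjusted p = 0.0304), whereas EA3 was at -0.01 ± 0.12 (adjusted p = 0.941). Sdhc, a membrane anchor of the same complex, rose by 0.33 ± 0.12 in EA1 (adjusted p = 0.044), and Sdha and Sdhd passed in no line. The Sdhb call in EA1 was lost with the term for the 8 libraries (-0.35, adjusted p = 0.131), and that in EA2 remained (adjusted p = 0.012).

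In complex III, Uqcrfs1, the Rieske iron-sulfur subunit, fell in EA2 and EA3. In EA3 it was at 84.2, 118, 81.4 and 93.4 CPM in DMSO and at 65.4, 76.3, 66.6 and 71.4 CPM with alectinib, with every treated library below every control library. Its log2 fold change was -0.42 ± 0.12 in EA3 (adjusted p = 0.0141) and -0.37 ± 0.12 in EA2 (adjusted p = 0.0311). With the term for the 8 libraries the call remained in EA3 (adjusted p = 0.0193) and not in EA2 (-0.345, adjusted p = 0.0627). Uqcrq, a small complex III subunit, fell in EA1 (-0.55 ± 0.19, adjusted p = 0.0399).

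In complex V, Atp5g2, 1 of 3 genes for the same c-ring subunit of ATP synthase, fell in EA3. It was at 125, 191, 75.7 and 127 CPM in DMSO and at 80.0, 84.8, 58.6 and 79.5 CPM with alectinib, lower on each day. The log2 fold change was -0.72 ± 0.16 (adjusted p = 0.00462), and the call remained whichever day was left out and with the term for the 8 libraries (adjusted p = 0.0163). It was lost when the EA3 day 7 pair was added, as were all 4 of the nuclear calls in EA3. Atp5c1, the central stalk subunit, fell in EA3 (-0.41 ± 0.14, adjusted p = 0.0363), and Atp5a1, a catalytic-head subunit, fell in EA2 (-0.52 ± 0.15, adjusted p = 0.0224). Atp5a1 was at 920, 1103, 737 and 776 CPM in EA2 in DMSO and at 645, 687, 480 and 643 CPM with alectinib, and these ranges did not overlap.

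In complex I, Ndufab1, the mitochondrial acyl carrier protein that is also a complex I subunit, fell in EA1 (-0.49 ± 0.16, adjusted p = 0.0281) and in EA3 (-0.44 ± 0.16, adjusted p = 0.048). Ndufa12, an accessory subunit, fell in EA1 (-0.41 ± 0.15, adjusted p = 0.0459). Ndufb2 rose in EA1 (0.99 ± 0.25, adjusted p = 0.00885) on 18 to 60 counts per library. The remaining gene that rose in EA1 was Ndufs6b, a paralog of the accessory subunit gene Ndufs6, with 3, 1, 0 and 0 counts in DMSO and 13, 13, 28 and 25 counts with alectinib. It had 0 to 6 counts in every other library and passed the filter on low counts only through the libraries in which it is high, so that its call is no independent result, and reads it shares with Ndufs6 could be split between them. Among the complex I assembly factors, Ndufaf7 rose in EA1 (0.64 ± 0.22, adjusted p = 0.0335) and Ndufaf6 fell in EA3 (-0.97 ± 0.27, adjusted p = 0.0158).

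Most of these nuclear calls depended on single days. The calls of Ndufaf7 and Ndufaf6 were each lost when 1 day was left out, and that of Ndufaf7 also with the term for the 8 libraries (0.68, adjusted p = 0.0935). Of the 7 nuclear genes called in EA1, 0 passed whichever day was left out other than Ndufs6b, which entered through the filter as described, of the 3 in EA2 0 did, and of the 4 in EA3 1 (Atp5g2) did. With the term for the 8 libraries, 1 of 7 (Ndufb2), 2 of 3 and 2 of 4 remained.

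**Figure D3:**
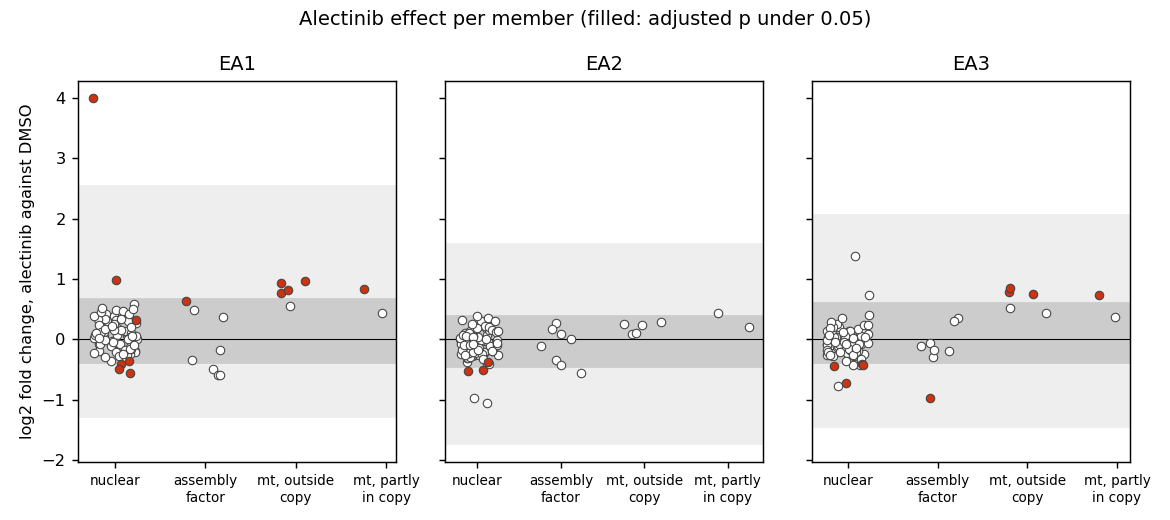
Log2 fold change of alectinib against DMSO for the nuclear subunit genes of all complexes together, the assembly factors and the mitochondrial genes outside or partly in the copied stretch, in each line, with filled points at an adjusted p under 0.05 and grey bands for the middle 50% and 90% of all genes tested. The nuclear genes centre near 0 (medians 0.07, -0.08 and -0.06), and in EA1 and EA3 mt-Nd5 lies at 0.96 and 0.85.

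The genes that control these subunits were taken from a list of transcription factors and coactivators of nuclear respiratory genes. Of 10 such genes tested, 1 rose and 6 fell in EA1, 1 rose and 0 fell in EA2, and 1 rose and 4 fell in EA3. Over all genes the shares that rose were 19.0% (EA1), 13% (EA2) and 17.5% (EA3) and those that fell were 14.6%, 11.3% and 15.1%, which are the shares beside which the counts of this and the following lists stand. The median log2 fold change of the 10 was -0.53, -0.07 and -0.44. The gene that rose in each line was Ppargc1a, a coactivator of mitochondrial biogenesis, by 1.43, 1.72 and 2.62 on the log2 scale in EA1, EA2 and EA3. It was at 1.17, 1.98, 10.2 and 6.76 CPM in EA3 in DMSO and at 20.9, 24, 19.6 and 29.2 CPM with alectinib. Nrf1, a transcription factor with sites in many of these promoters, fell by 0.85 on the log2 scale in EA1 and by 0.56 in EA3, and was at -0.18 in EA2. Pprc1, a coactivator related to Ppargc1a, fell by 1.19 in EA1 and by 0.74 in EA3, and was at -0.11 in EA2. Myc fell by 1.92 in EA1 and by 1.04 in EA3 and was at -0.12 in EA2. Of the 10, only Myc passed the joint test of a difference between the 3 lines (adjusted p = 0.0165). In the tests of 2 lines at a time, 3 of the 10 passed between EA2 and EA1, all with the higher log2 fold change in EA2 (6.4% of all genes passed). Between EA3 and EA1 and between EA3 and EA2, 0 of the 10 passed (1.8% and 2.9% of all genes).

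Of 26 tested genes that act on mitochondrial DNA and its transcripts, 0 rose in any line. In EA1 9 fell (34.6%, beside 14.6% of all genes), in EA2 2 fell (7.7%, below the 11.3% of all genes) and in EA3 7 fell (26.9%, beside 15.1%), and the median log2 fold change was -0.45, -0.12 and -0.30. Tfam, which packages mitochondrial DNA and starts its transcription, fell in EA1 (-0.51 ± 0.15) and EA3 (-0.48 ± 0.16) and was at -0.20 ± 0.15 in EA2. Polrmt, the mitochondrial RNA polymerase, fell in EA1 (-0.43 ± 0.14) and was at -0.20 in EA3. Whether the levels of these genes and those of the mitochondrial transcripts are linked was not tested. Of 48 genes of the large subunit of the mitochondrial ribosome, 9, 6 and 9 fell in EA1, EA2 and EA3 and 1, 0 and 0 rose, and of 29 of the small subunit 9, 6 and 10 fell and 1, 0 and 0 rose. In EA2 and EA3 the shares of the large subunit that fell (12.5% and 18.8%) were near those of all genes (11.3% and 15.1%), and those of the small subunit were 20.7% and 34.5%.

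Of 8 tested genes of electron carriers around the chain, 1 rose and 0 fell in EA1, 2 rose and 1 fell in EA2, and 1 rose and 1 fell in EA3. Etfdh, which feeds electrons from fatty acid oxidation into ubiquinone, rose in each line (log2 fold change 0.65 in EA1, 1.08 in EA2 and 1.03 in EA3). Cyc1, the cytochrome c1 subunit of complex III, which the symbol rule does not take in, fell in EA2 (-0.63 ± 0.13) and EA3 (-0.46 ± 0.13) and was at -0.31 ± 0.13 in EA1 (adjusted p = 0.0832). Of 39 assembly factors of the complexes, 6 rose and 1 fell in EA1, 3 rose and 1 fell in EA2, and 2 rose and 3 fell in EA3, in each line and direction a smaller share than that of all genes. Of 13 genes of the tricarboxylic acid cycle, 1 rose and 2 fell in EA1, 0 rose and 1 fell in EA2, and 0 rose and 2 fell in EA3, so that the shares that fell (15.4% in EA1 and EA3 and 7.7% in EA2) were near or below those of all genes. Fibroblast marker genes also differed with treatment: 4 of 5 tested rose in EA1, 3 of 5 in EA2 and 4 of 5 in EA3 (19.0%, 13% and 17.5% of all genes rose), with a summed level of 2.14 to 7.24 CPM in DMSO and 58.3 to 327 CPM with alectinib in EA1. In EA2 the summed level was 58.4 to 71.5 and 122 to 240 CPM, and in EA3 10.2 to 20.2 and 84.7 to 267 CPM. Hypoxia response genes were lower in EA3 (7 of 9 fell, median log2 fold change -1.84) and 3 of 9 fell in EA2 and 1 of 9 in EA1. Of 6 proliferation genes, 2, 2 and 3 fell in EA1, EA2 and EA3, and of 3 endothelial markers 1 fell in EA2. Of 5 epithelial markers, 1 rose and 1 fell in EA1, 1 rose and 2 fell in EA2, and 1 rose and 1 fell in EA3, with a summed level in EA2 of 1810 to 2700 CPM in DMSO and 567 to 1170 CPM with alectinib. Of 4 leukocyte markers, Ptprc, Cd3e and Lyz2 were at most at 0.358, 0.165 and 1.08 CPM, and Cd68, the 1 that was tested, ran from 1.36 to 91.6 CPM and passed with alectinib in none of the 3 lines. The part of these genes in the values above was not tested.

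Promoters of the nuclear genes were searched for 4 motifs of factors known to act on them. RefSeq (GRCm38.p6) promoters, from 250 bases before to 50 bases after the start, matched 66 of the 79 tested nuclear genes. The letters GCGCATGC, the core of the NRF1 site, were found on either strand in 10 of 66 (15.2%, beside 3.0% of 27025 genes), CCGGAAG, a core bound by ETS factors such as GABP, in 16 (24.2%, beside 9.9%), AAGATGGCG of YY1 in 7 (10.6%, beside 1.6%) and TCAAGGTCA of ERR in 2 (3.0%, beside 0.5%). These shares are descriptions, and a match is not a bound site. Both the NRF1 and the ETS letters were in the promoters of Atp5k, Atp5l, Cox6a1, Sdhb and Uqcr11. Those of Sdhb (chr4:140961021-140961320, plus strand), which fell with alectinib in EA1 and EA2, and of Atp5k (chr5:108434350-108434649, minus strand), which differed between lines in DMSO, are shown with these letters in capitals, followed by that of Cox7a2l (chr17:83514284-83514583, minus strand), the gene that differed most between lines, in which none of the 4 motifs was found.
Sdhb: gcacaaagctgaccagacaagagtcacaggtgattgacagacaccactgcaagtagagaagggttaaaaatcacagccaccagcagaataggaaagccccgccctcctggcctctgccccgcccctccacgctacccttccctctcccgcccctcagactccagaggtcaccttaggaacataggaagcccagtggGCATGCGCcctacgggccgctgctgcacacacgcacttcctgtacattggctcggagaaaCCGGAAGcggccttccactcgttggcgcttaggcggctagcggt
Atp5k: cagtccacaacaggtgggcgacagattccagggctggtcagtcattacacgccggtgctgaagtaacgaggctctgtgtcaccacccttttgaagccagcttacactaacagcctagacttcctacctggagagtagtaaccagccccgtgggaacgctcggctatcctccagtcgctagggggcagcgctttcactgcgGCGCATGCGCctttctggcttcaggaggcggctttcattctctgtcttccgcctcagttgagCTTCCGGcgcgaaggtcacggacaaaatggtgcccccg
Cox7a2l: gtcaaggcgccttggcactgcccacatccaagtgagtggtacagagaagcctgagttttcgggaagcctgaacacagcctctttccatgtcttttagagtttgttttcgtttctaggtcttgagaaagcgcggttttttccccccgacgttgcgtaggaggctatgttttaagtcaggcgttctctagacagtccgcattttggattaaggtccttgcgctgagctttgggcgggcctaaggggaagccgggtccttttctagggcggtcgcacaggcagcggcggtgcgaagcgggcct

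In DMSO, most of the nuclear subunit genes that differed from EA1 were higher in the other lines. Between EA2 and EA1, 23 of 78 tested nuclear genes were higher in EA2 (20.5% of 12886 genes were) and 2 were lower (20.3% of all genes). Between EA3 and EA1, 21 were higher in EA3 (17.5% of all genes) and 0 were lower (15.2% of all genes), where DESeq2 also called 0 lower. In that comparison 31 nuclear genes had an unadjusted p under 0.05 in either direction, beside 5600 of all 12886 genes. Between EA3 and EA2, 8 were higher in EA3 (19.3% of all genes) and 6 lower (17.1% of all genes). The 3 comparisons share libraries. The median log2 difference over the 78 genes was 0.29 for EA2 and 0.26 for EA3 against EA1, beside 0.01 and 0.02 over all genes, and -0.08 for EA3 against EA2. Scaling by library size alone moved the median of all genes by 0.18 for EA2 against EA1 and by -0.15 for EA3 against EA2. With that scaling more nuclear genes were called higher in EA2 than in EA1, as given in the last section, and 5 were higher and 18 lower in EA3 than in EA2.

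The largest of these differences was that of Cox7a2l, which encodes a protein related to complex IV subunits. It was at 51.7, 69.4, 106 and 89.2 CPM in EA2 in DMSO on days 1, 2, 3 and 5. In EA1 it was at 129, 199, 187 and 330 CPM and in EA3 at 133, 378, 304 and 427 CPM. On these 4 days every EA2 library was below every library of the other lines. The log2 difference was -1.41 ± 0.21 for EA2 against EA1 (adjusted p = 0.000233) and 1.93 ± 0.21 for EA3 against EA2 (adjusted p = 2.59e-05). Both calls remained whichever day was left out and with the term for the 8 libraries (1.89 for EA3 against EA2, adjusted p = 0.00117).

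Sdhb ran in the opposite direction. It was higher in EA2 than in EA1 by 0.81 ± 0.17 (adjusted p = 0.00236) and lower in EA3 than in EA2 (-0.87 ± 0.17, adjusted p = 0.00164), with EA2 at 131 to 220 CPM, EA1 at 80.8 to 93.0 CPM and EA3 at 64.3 to 118 CPM in DMSO. Uqcr10 and Uqcr11, small subunits of complex III, were higher in EA2 than in EA1 by 1.08 ± 0.16 (adjusted p = 0.000247) and 1.03 ± 0.18 (adjusted p = 0.000804). Both were also higher in EA3 than in EA1, by 0.72 ± 0.16 and 0.77 ± 0.18. Atp5k, a small subunit of the membrane part of ATP synthase, was at 57.1, 48.7, 30.0 and 37.9 CPM in EA1, at 97.1, 117, 62.9 and 76.1 CPM in EA2 and at 112, 150, 46.7 and 64.4 CPM in EA3. EA2 was above EA1 in all libraries, while EA3 on day 3 fell within the EA1 range. The log2 difference from EA1 was 1.02 ± 0.18 for EA3 (adjusted p = 0.00125) and 0.98 ± 0.18 for EA2 (adjusted p = 0.00114).

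Of the genes higher than in EA1, 14 of the 23 in EA2 and 12 of the 21 in EA3 had Nduf symbols, grouped here as complex I. Such genes make up 37 of the 78 tested, and whether these shares differ was not tested. Ndufs8, a core iron-sulfur subunit, was higher in EA3 than in EA1 (0.84 ± 0.14, adjusted p = 0.000859) and than in EA2 (0.61 ± 0.14). Ndufv2, a core subunit of the NADH-binding part, was higher in EA2 than in EA1 (1.06 ± 0.21) and lower in EA3 than in EA2 (-0.74 ± 0.21). Ndufv3, an accessory subunit of the same part, was higher in EA3 than in EA2 (1.20 ± 0.26, adjusted p = 0.00374) and than in EA1 (0.94 ± 0.26). Ndufs5 was lower in EA2 than in EA1 (-0.83 ± 0.19, adjusted p = 0.00411). Atp5o, higher in EA2 than in EA1 by 0.89 ± 0.20, shares all of its exon bases with other annotated genes of the same strand, so that its value is uncertain.

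These counts moved when single days were left out and with the term for the 8 libraries, of which EA2 in DMSO holds 2 and the other lines in DMSO hold 0. Of the 23 genes higher in EA2 than in EA1, 12 were called without day 2 and 9 with the term (Atp5o was not), and of the 25 called in either direction 13 passed whichever day was left out and 11 remained with the term. Of the 14 genes called between EA3 and EA2, Cox7a2l, Ndufs7, Ndufv3 and Sdhb passed whichever day was left out, and with the term Cox7a2l, Ndufs7, Ndufv2 and Sdhb remained, while Ndufv3 (0.95, adjusted p = 0.0733) and Ndufs8 (0.54, adjusted p = 0.0892) no longer passed, with differences of the same direction. Without day 2, 3 of the 21 genes higher in EA3 than in EA1 were called (Atp5k, Ndufa7 and Ndufs8 passed whichever day was left out), and 19 of the 21 remained with the term. Of 9 genes of a list of hypoxia response genes, 8 were higher in EA3 than in EA2 in DMSO and 6 lower in EA2 than in EA1, and their part in the differences of Cox7a2l and Ndufv3 was not tested.

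Markers of cell types also differed between the lines in DMSO. Of the 5 epithelial markers, 3 were lower in EA2 than in EA1 (median log2 difference -2.01), 1 was higher and 1 lower in EA3 than in EA1 (0.19), and 4 were higher in EA3 than in EA2 (2.68). Their summed level was 1810 to 2700 CPM in EA2, beside 4630 to 9250 CPM in EA1 and 4630 to 6680 CPM in EA3. Of 3 fibroblast markers tested, 2 were higher and 1 lower in EA2 than in EA1, 2 were higher in EA3 than in EA1, and 1 was higher and 2 lower in EA3 than in EA2. Of 3 endothelial markers, 1 was higher and 1 lower in each of these comparisons. Of 6 proliferation genes, 3 were higher in EA2 than in EA1, 1 was lower in EA3 than in EA1 and 2 were lower in EA3 than in EA2. Of all genes, 40.8%, 32.6% and 36.5% were called in these comparisons in the same order. Cd68, the leukocyte marker that was tested, was higher in EA2 (3.44) and EA3 (3.14) than in EA1, and the sum of the 4 leukocyte markers reached 87.5 CPM in EA2 and 92.1 CPM in EA3, beside 9.56 CPM in EA1. The part of all these markers and proliferation genes in the differences of the subunit genes between lines was not tested.

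Among the mitochondrial genes outside the copied stretch, mt-Nd5 (0.88 ± 0.21, adjusted p = 0.00619) and mt-Nd6 (1.05 ± 0.27, adjusted p = 0.00892) were higher in EA3 than in EA2. The genes mt-Nd1, mt-Nd2 and mt-Cytb did not pass. Neither call remained without day 2, and with the term mt-Nd5 remained (0.95, adjusted p = 0.0379) and mt-Nd6 did not (1.09, adjusted p = 0.066), its difference being about as large as without the term. Against EA1, 0 of the 5 genes passed in EA2 or EA3, and DESeq2 called 0 and 1. At an unadjusted p under 0.05 there were 0 and 1, beside 6325 and 5600 of all 12886 genes.

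**Figure D4:**
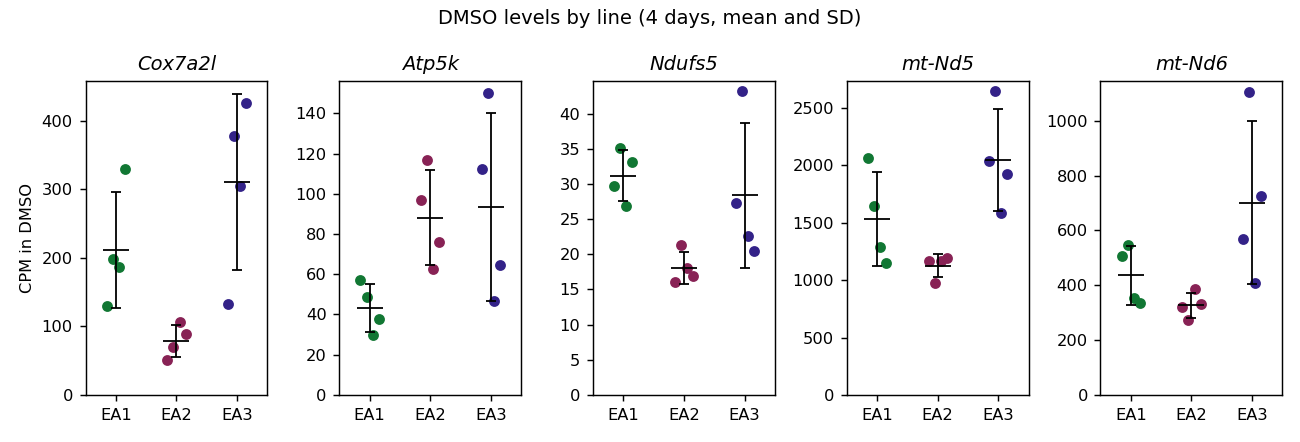
TMM-scaled CPM in DMSO of Cox7a2l, Atp5k, Ndufs5, mt-Nd5 and mt-Nd6, in EA1, EA2 and EA3, with points from left to right for days 1, 2, 3 and 5 and a bar for the mean with its SD (n = 4). Cox7a2l is lowest in EA2 (51.7 to 106 CPM).

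Over the days in DMSO, a few subunit genes had a slope that passed. The slope, per doubling of the day, was fitted as common to the lines, which does not show a change in each line, and was positive for 3 of 78 nuclear genes (8.50% of all genes) and negative for 7 (8.63% of all genes). Ndufa6, an accessory subunit of complex I, was at 48.4, 70.9, 49.6 and 209 CPM in EA1 and at 57.0, 206, 133 and 246 CPM in EA3 on days 1, 2, 3 and 5. In EA2 it was at 64.9, 75.7, 108 and 79.7 CPM, a narrower range than in the other lines. Its slope was 0.60 ± 0.17 (adjusted p = 0.0291). Cox7a2l (0.52 ± 0.11, adjusted p = 0.00985) and Ndufv3 (0.45 ± 0.14, adjusted p = 0.0382) also rose.

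Among the genes that fell were the c-ring genes Atp5g1 (-0.58 ± 0.14, adjusted p = 0.0157) and Atp5g3 (-0.39 ± 0.12, adjusted p = 0.0344). Atp5g1 was at 82.4, 73.8, 74.1 and 29.7 CPM in EA1, at 91.3, 106, 44.4 and 55.7 CPM in EA2 and at 100.0, 89, 37.9 and 32.1 CPM in EA3. Day 5 was below day 1 in each line. The others that fell were Ndufa5 (-0.51), Ndufb7 (-0.43), Ndufs1 (-0.33), Atp5b (-0.30) and Sdha (-0.23), and the assembly factor gene Ndufaf2 (-0.40). Of the 5 mitochondrial genes outside the copied stretch 0 passed, with 2 at an unadjusted p under 0.05 (4315 of 12886 genes were).

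The hypoxia response list moved over the same days. All 9 of its genes rose in DMSO, and their summed level went from 516.5 to 5491 CPM in EA1, from 773.6 to 8465 CPM in EA3 and from 571.2 to 1002 CPM in EA2 between days 1 and 5. Of 6 proliferation genes, 5 fell over the same days, and the leukocyte marker Cd68 rose (slope 1.46 ± 0.21). With alectinib the hypoxia sum stayed between 318 and 1473 CPM across all lines and days. Their part in the slopes of the subunit genes was not tested.

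With alectinib, 0 of 79 nuclear genes had a slope over days that passed (0.341% of all genes did), with 3 at an unadjusted p under 0.05 (1820 of 13486 genes were). DESeq2 was not run for slopes. The log2 ratio of alectinib to DMSO changed over the days for 4 nuclear genes. It rose for Ndufa5 (0.50 ± 0.13 per doubling of the day, adjusted p = 0.0486) and Atp5g1 (0.49 ± 0.12, adjusted p = 0.0378), beside 1.65% of all genes. It fell for Ndufa6 (-0.56 ± 0.14, adjusted p = 0.048) and Cox7a2l (-0.47 ± 0.09, adjusted p = 0.0206), beside 2.41% of all genes. Of the 5 mitochondrial genes outside the copied stretch, 0 passed in the test of slopes with alectinib or of changes of the ratio. In both, 0 were at an unadjusted p under 0.05, beside 1820 of 13486 and 3205 of 14264 genes. Cox7a2l was at 166, 170, 168 and 162 CPM in EA1 with alectinib on days 1, 2, 3 and 5, beside its values in DMSO of 129 to 330 CPM. All nuclear calls of slopes in DMSO and of changes of the ratio were lost without day 1 and without day 5. With the term for the 8 libraries, 7 of the 10 nuclear slopes in DMSO remained, while Ndufv3 (0.44, adjusted p = 0.0534), Atp5b (-0.30, adjusted p = 0.0561) and Sdha (-0.23, adjusted p = 0.061) no longer passed at slopes about as large as without it, and 3 of the 4 changes of the ratio, that of Ndufa5 being lost.

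**Figure D5:**
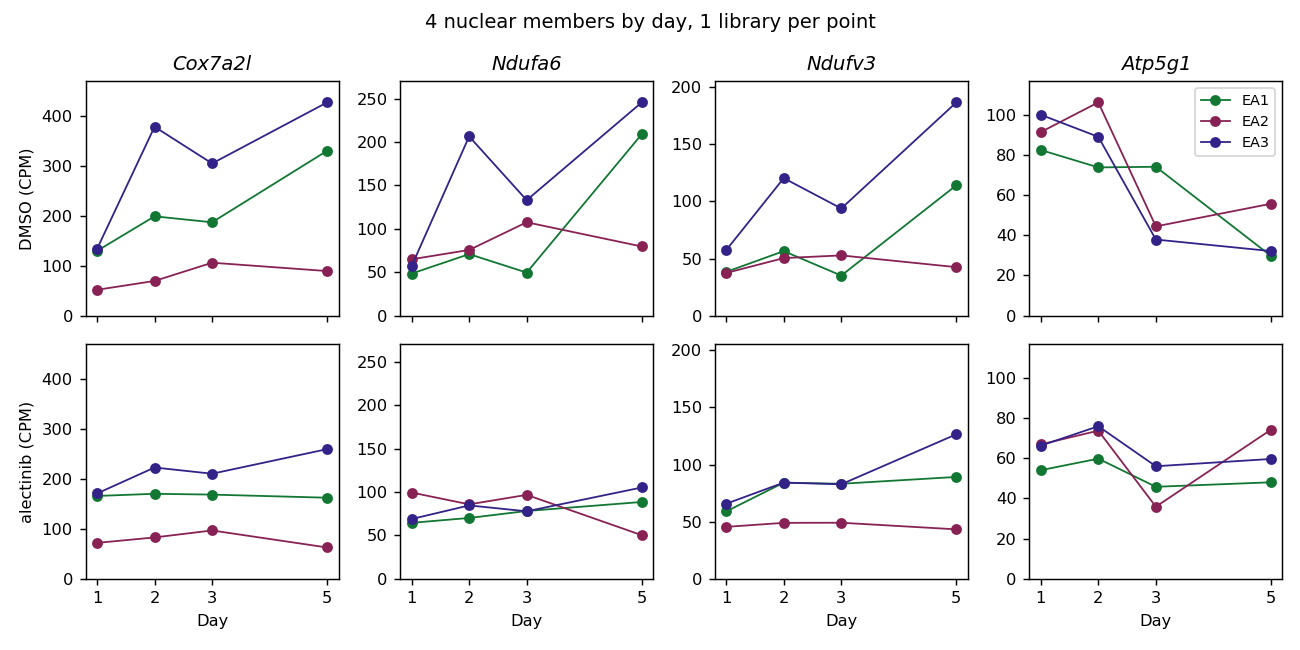
TMM-scaled CPM by day of subunit genes whose level changed over days in DMSO, for DMSO and alectinib in each line. In DMSO Cox7a2l was at 129 CPM on day 1 and 330 CPM on day 5 in EA1 and at 133 and 427 CPM in EA3, and Atp5g1 was lower on day 5 than on day 1 in each line.

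Several complex IV subunits have a second, tissue-restricted isoform, and in these cells the widely expressed form was the one counted. Per kilobase of exon, Cox4i1 was at a mean of 180 CPM and Cox4i2 at 0.143, Cox6a1 at 212 and Cox6a2, the muscle form, at 0.534, and Cox6b1 at 148 and Cox6b2, the testis form, at 0.032. Cox7b2, Cox8b and Cox8c were at 0 in all 24 libraries, while Cox7b was at 87.9 and Cox8a at 205 per kilobase. Cox7a1, the muscle form of Cox7a, was low, at 2.73 per kilobase beside 82.5 for Cox7a2, with 2 to 73 counts per library. In DMSO it was at 0.897, 2.22, 1.32 and 5.27 CPM in EA3 and at 0.314, 0.334, 0.428 and 1.55 CPM in EA1. It is 1 of the 21 genes called higher in EA3, but it lies near the limit of the filter on low counts and is highest in EA3, so that these levels are given as a description. Cox6a2 had 44 counts in EA1 in DMSO on day 3 and 8 or fewer in each of the other 23 libraries. The 3 c-ring genes Atp5g1, Atp5g2 and Atp5g3, which encode the same mature protein, were at 13, 66.4 and 87.7 per kilobase. These values depend on the annotated exon lengths of 4912, 1675 and 2181 bases, and the mean levels were 63.85, 111 and 191 CPM. The 10 nuclear genes that did not pass the filter on low counts were Cox4i2, Cox6a2, Cox6b2, Cox6c2, Cox7b2, Cox8b, Cox8c, Ndufa11b, Ndufa4l2 and Ndufb4c.

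On day 7, for which only EA3 has libraries, the 5 mitochondrial genes outside the copied stretch summed to 7333 CPM in DMSO and 9425 CPM with alectinib, and the nuclear subunit genes to 6157 and 10272 CPM. The mitochondrial gene mt-Cytb was at 2387 and 4044 CPM and mt-Nd1 at 1758 and 2171 CPM, whereas mt-Nd5 was at 1330 and 1327 CPM, and the 13 mitochondrial genes took 1.70% and 1.69% of all counts. Cox7a2l was at 104 and 99 CPM and Sdhb at 131 and 136 CPM. The mitochondrial and the nuclear sum were thus both higher in the treated library, while mt-Nd5 was not. The mitochondrial sum was 1.19 times the nuclear sum in DMSO and 0.918 times with alectinib, so that on this day the nuclear sum was raised more than the mitochondrial sum, the reverse of days 1 to 5 in EA3, and with 1 library per treatment no test of that day was made.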

How the data were processed

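RNA from the 3 lines was sequenced as paired reads. According to the methods, the authors checked reads with FastQC, trimmed adapters with bbduk, mapped to mm10 with STAR, counted with STAR's own counter and scaled to CPM with edgeR. The deposited values are the whole-number gene counts as the table shows them, not the CPM. Versions, annotation release and strand column are not given in the sources used here. STAR counts uniquely mapped reads only, which lowers genes with a near-identical copy. Of 55415 rows, 24 whose symbols had turned into dates (0.129% to 0.201% of counts) were left out.

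Counts were fitted with edgeR 4.0.16 in R 4.3.3 (TMM, filterByExpr, robust quasi-likelihood test, adjusted p threshold 0.05 by Benjamini-Hochberg over all genes). The alectinib fit used 24 libraries with a block for each of 12 lines and days and an effect per line. DMSO line differences used 12 libraries with day as a block, and slopes were per doubling of the day. The fits were tested on simulated data. Sums and folds per day used TMM-scaled CPM, the latter with 0.5 CPM added. DESeq2 1.42.0, other scalings, filters and designs and leaving out each day were alternatives. The named genes were the mitochondrial genes, complex II, isoform families, the genes with the largest changes past the threshold and the 3 smallest p-values per pair of lines, and others were named after their values were seen. Members and lists were chosen with earlier results of these data known. Same-day libraries of a line deviated together in only some pairs (correlation -0.300 to 0.549), and the block was kept by design. The lines also differ in genotype, which is not reported here.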

Additional observations from a re-analysis of the deposited data

Results flagged for a closer look

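In 204 groups of 4 libraries (a gene in a line and treatment), 12 held a library far from the other 3 by Dixon's criterion, where chance gives about 1 in 20. In EA1 in DMSO these were Ndufaf7 on day 3 (9.08 CPM), Ndufaf6 on day 1 (5.86 CPM), Ndufa6 on day 5 (209 CPM) and Atp5g1 on day 5 (29.7 CPM). In EA1 with alectinib they were mt-Nd5 (2720 CPM), Ndufs5 (42.3 CPM) and Atp5g3 (212 CPM), all on day 2, and mt-Co1 on day 1 (10500 CPM). In EA2 in DMSO mt-Nd5 (977 CPM), Ndufab1 (47.7 CPM) and Atp5c1 (301 CPM) stood apart on day 2, as did Sdhc in EA3 in DMSO (141 CPM). The day 2 library with alectinib is the single EA1 alectinib library that is not among the 8 libraries described above.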

How the results depend on the processing

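Counts of calls from 4 days per group are small and moved with the processing, and depth limits the low genes (Ndufs6b, Ndufb2, Cox7a1). Each count or median of a comparison was recomputed under each planned setting, and of these values 349 stayed on the same side, 48 were weaker and 13 stronger. For single genes 581 stayed, 143 were weaker, 10 stronger and 7 reversed. Under settings added after the data were seen, 33 counts or medians stayed and 9 were weaker, and for single genes 48 stayed, 21 were weaker and 1 reversed. The cause was not tested.

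Nuclear genes higher with alectinib in EA1 (3) were 5 with library size alone, 1 with no filter, 1 with each line alone, 1 with the term for the 8 libraries, and 1 to 4 leaving out a day. Those lower (4) were 0, 2, 2, 0 and 0 to 1 in the same order. In EA2, DESeq2 called 1 higher (0), and those lower (3) were 1 with no filter, 5 with each line alone and 0 to 2 leaving out a day. In EA3 those lower (4) were 8 with DESeq2, 1 with library size alone, 2 with no filter, 1 with each line alone, 0 with all 26 libraries, 2 with the term, and 1 to 8 leaving out a day. Without the pairing of libraries by line and day (no replicate block), EA1 had 1, EA2 0 and EA3 4 genes lower, and the mitochondrial genes outside the copied stretch that rose were 4, 0 and 3. These mitochondrial genes (4 in EA1, 3 in EA3) were 2 in EA1 with the term, and 2 to 5 and 1 to 4 leaving out a day. With no filter, 2 nuclear genes differed in effect between lines (0).

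In DMSO, genes higher in EA2 than in EA1 (23) were 39 with library size alone, 9 with the term and 12 to 21 leaving out a day. Those higher in EA3 than in EA1 (21) were 3 to 20, and DESeq2 and a day left out gave 1 mitochondrial gene higher (0 to 1). For EA3 against EA2, those higher (8) were 5, 1 and 3 to 8 with library size alone, the term and a day left out, those lower (6) were 10 with DESeq2, 18, 3 and 3 to 8, and the mitochondrial genes (2) were 1 with the term and 0 to 2. Slopes in DMSO were 0 to 3 upward (3) and 0 to 4 downward (7) leaving out a day, with 11 downward with library size alone. The effect over days gave 0 to 4 (2) upward and 0 to 2 (2) downward, 1 upward with the term, and 1 downward with library size alone or day as given.

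Some differences near 0 changed sign. Sdhb with alectinib in EA3 was 0.10 with library size alone and 0.01 without day 1 or day 2. Atp5k in EA3 against EA2 was -0.13 with library size alone, -0.05 and -0.16 without day 1 or day 2, and -0.01 with the term. Ndufv3 in EA2 against EA1 was 0.08 without day 5, and leaving out a day gave -0.52 to 0.08, while Atp5k ran from -0.16 to 0.15.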
